A study of Mus musculus with 2 samples.

Results

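Sebaceous gland cells were examined in single-cell RNA-sequencing data from the dorsal skin of 1 wildtype C57BL/6J mouse and 1 *Eppk1*-/- mouse that had been backcrossed into C57BL/6J. *Eppk1* encodes epiplakin, a plakin repeat protein that binds keratin filaments, and the study asked whether its loss changes gene expression in the cells of the skin. Each library came from 6 mm punch biopsy material of untreated skin that was enzymatically dissociated, fixed and read with a probe-based assay, in which short probe pairs are counted as unique molecular identifiers (UMIs). The libraries were pooled and told apart by a probe barcode. With 1 mouse per genotype, differences between genotypes cannot be told apart from differences between mice or punches, no test was possible, and the intervals given below are exact 95% intervals that cover counting error only.

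The cells were chosen on measured values. The limits of the study were kept for depth (200 to 45000 UMIs), detected genes (100 to 7500) and the mitochondrial share (no more than 10%). A cell was taken where *Scd1*, *Scd3*, *Awat2*, *Elovl3*, *Far2* and *Mc5r* together made up at least 0.5% of its UMIs (the lipid gene share below), or where it held at least 2 UMIs of *Cyp2g1*. Cells in which *Col1a1*, *Col1a2*, *Col3a1* and *Dcn* reached 0.5% were left out. This gave 171 cells of 17492 kept cells, 76 of 8875 in the wildtype library and 95 of 8617 in the *Eppk1*-/- library. Of these, 104 cells had 2 or more *Cyp2g1* UMIs and are called *Cyp2g1*+ cells here, and the other 67 are called *Cyp2g1*-low cells. The libraries held 77638793 UMIs (wildtype) and 65118304 UMIs (*Eppk1*-/-), and the kept cells had medians of 4963 and 5006 UMIs. The libraries shared 1211 droplet barcodes. Among the chosen cells, 9 wildtype and 15 *Eppk1*-/- cells had a barcode that also occurred in the other library, and none of those partners was itself a chosen cell.

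Sebaceous glands are attached to hair follicles and are renewed from basal progenitors at the rim of the gland. As the progeny move inward they enlarge, fill with lipid droplets and finally burst, a mode of release called holocrine secretion, which delivers wax esters, triglycerides and sterol esters to the hair and skin surface. The nuclear receptor PPARγ drives this differentiation, stearoyl-CoA desaturase *Scd1* is needed for normal glands in mice, and the elongases *Elovl3* and *Elovl4* extend fatty acids for sebum and barrier lipids. *Cyp2g1* encodes a cytochrome P450 that is best known from the olfactory mucosa.

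*Eppk1* itself was lower in the library labelled *Eppk1*-/- in both kinds of gland cell. Levels are given as CPM, the UMIs of a gene scaled to a common total of non-mitochondrial UMIs, with the wildtype named before *Eppk1*-/- unless stated, and a log2 ratio of *Eppk1*-/- over wildtype is followed by its interval. *Cyp2g1*+ cells held *Eppk1* at 547 and 197 CPM, a log2 ratio of -1.48 (-1.72 to -1.23). Levels in *Cyp2g1*-low cells were 554 and 71.9 CPM (-2.91, -3.72 to -2.26), and in reference keratinocytes 3225 and 808 CPM (-1.997). The *Eppk1* count of the *Eppk1*-/- *Cyp2g1*+ cells rested largely on 4 cells with a lipid gene share under 0.5%, and 23 of its 282 UMIs remained without them, which gave 16.7 CPM and a log2 ratio of -5.01 (-5.72 to -4.42). Where the *Eppk1* probes sit relative to the deleted part of the gene is not known here, so the remaining counts check the label only in part. The gene lies at chr15:76101481-76120195 on the minus strand (GRCm38).

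The promoters of 4 lipid genes are shown because these genes took different courses across the gland cells, as described below. Each is the window of 250 bases before the annotated start, taken from RefSeq for GRCm38.p6 and written 5′ to 3′ on the strand of the gene, and capitals mark the letters CCAAT on either strand and TCACNCCAC, a form of the sterol response element.

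Hmgcs1: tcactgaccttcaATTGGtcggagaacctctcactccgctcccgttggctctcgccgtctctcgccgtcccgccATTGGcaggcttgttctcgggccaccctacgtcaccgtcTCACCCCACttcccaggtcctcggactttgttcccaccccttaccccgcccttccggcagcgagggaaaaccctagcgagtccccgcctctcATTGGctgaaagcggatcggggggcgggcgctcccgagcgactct
Insig1: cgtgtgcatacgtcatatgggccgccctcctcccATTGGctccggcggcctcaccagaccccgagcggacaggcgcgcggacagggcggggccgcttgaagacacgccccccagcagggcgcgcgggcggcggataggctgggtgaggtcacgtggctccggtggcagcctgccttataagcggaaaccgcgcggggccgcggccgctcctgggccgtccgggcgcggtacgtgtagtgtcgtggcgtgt
Elovl5: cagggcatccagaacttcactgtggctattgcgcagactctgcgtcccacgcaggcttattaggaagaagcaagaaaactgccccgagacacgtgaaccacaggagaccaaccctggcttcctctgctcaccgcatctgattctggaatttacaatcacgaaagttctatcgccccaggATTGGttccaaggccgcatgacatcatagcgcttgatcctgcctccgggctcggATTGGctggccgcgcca
Elovl4: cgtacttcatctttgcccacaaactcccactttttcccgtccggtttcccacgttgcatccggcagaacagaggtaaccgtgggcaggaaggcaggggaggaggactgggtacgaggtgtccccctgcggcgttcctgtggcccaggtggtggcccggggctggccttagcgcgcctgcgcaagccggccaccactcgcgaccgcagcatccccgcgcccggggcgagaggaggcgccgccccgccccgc

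*Hmgcs1* (chr13:119690101-119690350, plus strand), the enzyme at the head of the mevalonate pathway, held 3 CCAAT matches and 1 sterol response element. *Insig1* (chr5:28071162-28071411, plus strand), which restrains sterol synthesis, held 1 CCAAT match, and the elongase *Elovl5* (chr9:77917115-77917364, plus strand) held 2. *Elovl4* (chr9:83806306-83806555, minus strand) held neither motif. Across the 25 genes of a cholesterol synthesis list, promoters of 17 were matched and 16 of these genes (94.1%) had a CCAAT match, against 37.5% of the 27025 genes with a promoter, and 9 of 12 fatty acid synthesis genes had it, as did 5 of 12 elongation, 4 of 7 wax and sterol ester, 7 of 18 lipid droplet and 1 of 7 desaturation genes. TCACNCCAC was found in 1.22% of all genes with a promoter and in 1 of the 17 cholesterol genes. A match describes the letters of the window and is not a binding site.

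Beside the genes that chose them, the cells carried other genes of sebaceous lipid metabolism at high level, as the plot of marker levels shows. *Fa2h*, which hydroxylates fatty acids, was at 6794 and 7203 CPM in *Cyp2g1*+ cells, against 0.719 and 0.874 CPM in reference keratinocytes. The lipid droplet gene *Cidea* was at 2480 and 2797 CPM against 1.26 and 0.918 CPM, the sterol esterifying enzyme *Soat1* at 2765 and 3382 CPM against 2.79 and 2.45 CPM, and the wax synthase *Awat1* at 894 and 1354 CPM against 0.150 and 0.524 CPM. *Pparg* was at 208 CPM in both libraries, against 0.539 and 1.14 CPM. Reference keratinocytes were 4983 wildtype and 3769 *Eppk1*-/- cells outside the gland with at least 1% of their UMIs in 8 keratin genes. Ranked by the smaller of the folds over these cells in the libraries, *Fa2h*, *Cyp2j12*, *Panx3*, *Cyp2j8* and *Hsd3b6* led the *Cyp2g1*+ cells and *Cyp2j12*, *Awat1*, *Cyp2j8*, *Pnpla5* and *A4gnt* the *Cyp2g1*-low cells. *Cyp2j12*, *Cyp2j8*, *Hsd3b6*, *Pnpla5* and *A4gnt* had 0 UMIs in wildtype and 6 or fewer in *Eppk1*-/- reference keratinocytes. Their folds depend on the 0.5 UMI added to each sum, and the order of these genes is uncertain.

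**Figure D1:**
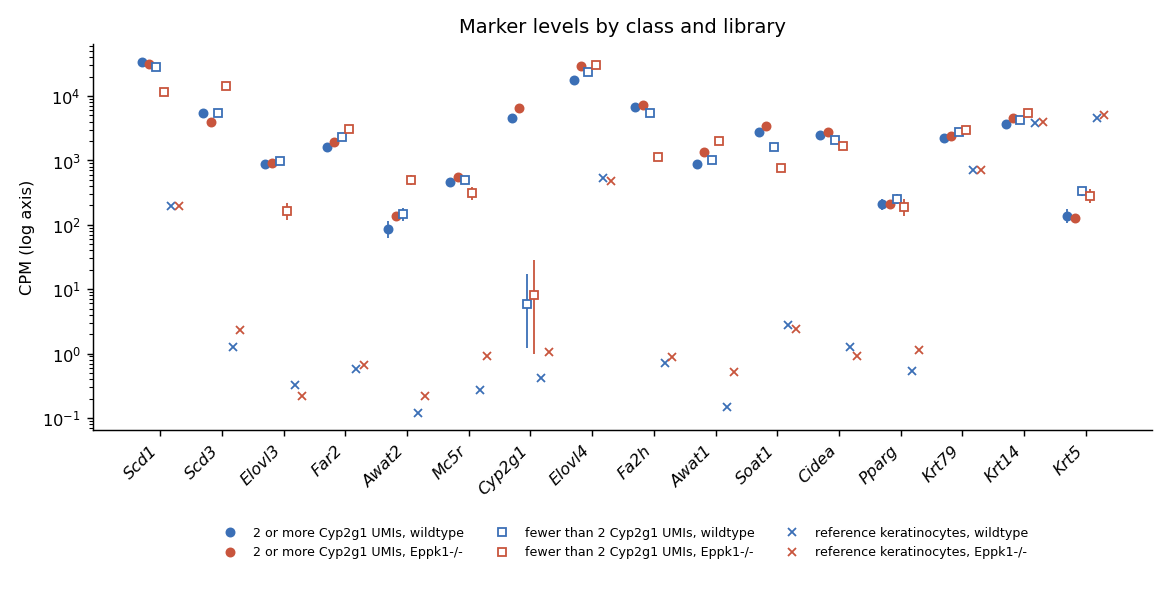
Levels of 16 genes (CPM, log axis) in *Cyp2g1*+ cells, *Cyp2g1*-low cells and reference keratinocytes of each library, with exact Poisson 95% intervals as bars. The lipid genes stand far above the keratinocytes in all 4 gland groups, *Krt5* stands below them, and *Cyp2g1* is high only where it was used to choose the cells.

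Of 11831 genes with enough UMIs, 1834 (15.5%) were at least 2-fold higher in the gland cells than in reference keratinocytes in both libraries and 3171 (26.8%) at least 2-fold lower. Most lists of lipid genes stood above the higher share, as a description of cells chosen by some of their members. All 11 measured fatty acid synthesis genes were higher in both libraries, with median log2 ratios of 3.47 (wildtype) and 3.21 (*Eppk1*-/-). So were 9 of 12 elongation genes, 6 of 7 wax and sterol ester genes, 7 of 10 triglyceride synthesis genes, 9 of 13 lipid droplet genes, 27 of 34 peroxisome genes and 18 of 24 cholesterol synthesis genes. The desaturation list was divided, with 3 of 8 genes higher and 3 lower and medians of -0.46 and -1.01. Of 26 sebaceous regulators 5 were higher and 8 lower, with medians of -0.55 and -0.58, and of 14 sebaceous receptors 2 were higher and 6 lower, with medians of -0.81 and -0.90. Catalase, *Cat*, which breaks down the peroxide that peroxisomes make, was at 2062 and 1888 CPM in *Cyp2g1*+ cells against 169 and 164 CPM in keratinocytes. The duct factor *Gata6* had 2 UMIs in wildtype and 0 UMIs in *Eppk1*-/- *Cyp2g1*+ cells.

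Epithelial genes of the neighbouring layers were lower than in the reference keratinocytes, which were chosen on 8 keratin genes, so that the lower keratins follow in part from that choice. Of 14 basal layer genes 12, of 16 spinous and granular genes 12 and of 18 duct and upper follicle genes 15 were at least 2-fold lower in both libraries, beside 26.8% of all genes, and none of the first pair of lists was higher. *Krt5*, the basal keratin, was at 138 and 128 CPM in *Cyp2g1*+ cells against 4579 and 5128 CPM in keratinocytes, and *Krt10*, a spinous keratin, at 121 and 188 CPM in *Cyp2g1*-low cells against 12007 and 12170 CPM. *Krt14* did not follow *Krt5*, at 3680 and 4561 CPM in *Cyp2g1*+ cells and 3787 and 3949 CPM in keratinocytes. *Krt79*, a keratin of the gland duct, was at 2274 and 2409 CPM against 717 and 709 CPM. All 7 plakins were lower in the gland cells in both libraries, with medians of -2.55 and -2.65, and *Dsp*, the desmosomal plakin, was the highest of them with 637 and 967 CPM in *Cyp2g1*+ cells against 5604 and 5526 CPM.

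*Cyp2g1*+ cells made up 0.361% (0.247% to 0.509%) of wildtype and 0.836% (0.654% to 1.05%) of *Eppk1*-/- cells, 32 and 72 cells. *Cyp2g1*-low cells made up 0.496% (0.360% to 0.665%) and 0.267% (0.169% to 0.400%), 44 and 23 cells. All gland cells together made up 0.856% (0.675% to 1.07%) and 1.10% (0.893% to 1.35%). These are shares of dissociated skin, in which reference keratinocytes were 56.1% of wildtype and 43.7% of *Eppk1*-/- cells and collagen-rich fibroblasts 18.3% and 30.6%, and a difference in cell yield and a difference in gland size cannot be told apart in them.

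**Figure D2:**
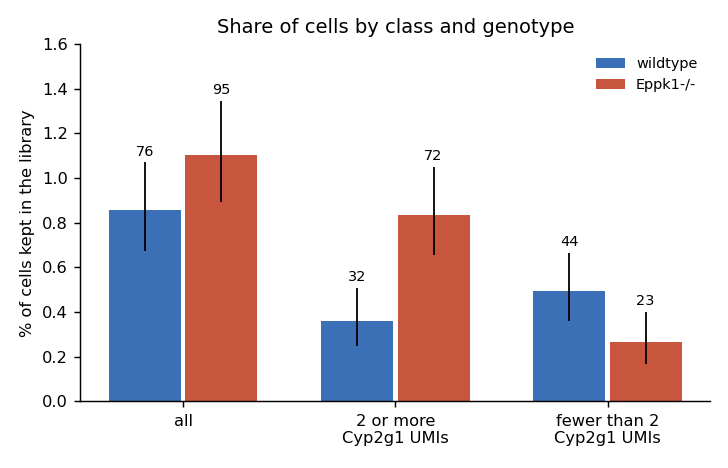
Share of kept cells (%) that were *Cyp2g1*+ or *Cyp2g1*-low, by library, with Clopper-Pearson 95% intervals as bars and the number of cells above each. The *Cyp2g1*+ share is 0.361% in wildtype and 0.836% in *Eppk1*-/-, and the *Cyp2g1*-low share is 0.496% and 0.267%.

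The collagen limit removed more cells from the *Eppk1*-/- library. In it 57 cells (0.661% of kept cells) met the lipid or *Cyp2g1* limit but held 0.5% or more collagen genes, 54 of them with 2 or more *Cyp2g1* UMIs, against 7 wildtype cells (0.0789%), 3 of them with 2 or more. The *Eppk1*-/- cells of this kind were shallow, with a median of 1889 UMIs, a lipid gene share of 1.08%, a collagen share of 1.64%, a keratin share of 2.47% and 7 *Cyp2g1* UMIs. Counted in, they would raise the *Eppk1*-/- *Cyp2g1*+ share to 1.46%. What these cells are was not tested.

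Immediately beside the lipid limit the cells were few. Among cells that met the lipid limit the lowest lipid gene share was 0.529% in wildtype and 0.519% in *Eppk1*-/-, and the highest outside the chosen cells was 0.483% and 0.429%. Between 0.4% and 0.5% there were 5 wildtype cells and 1 *Eppk1*-/- cell, and between 0.5% and 0.6% likewise 5 and 1. A share of 0.5% to 1% was held by 15 of 44 wildtype and 7 of 23 *Eppk1*-/- *Cyp2g1*-low cells, with *Krt5* at 551 and 1336 CPM. At 1% to 2%, 2% to 5% and 5% to 10%, *Krt5* was at 878, 18.3 and 472 CPM in wildtype *Cyp2g1*-low cells. In *Eppk1*-/- it was at 37.7, 8.83 and 0 CPM. Among kept cells outside the gland and under the collagen limit, 19 wildtype and 37 *Eppk1*-/- cells had exactly 1 *Cyp2g1* UMI.

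*Cyp2g1* was not spread evenly over the gland. The *Cyp2g1*+ cells had a median of 22.5 *Cyp2g1* UMIs in wildtype (highest 505) and 90 UMIs in *Eppk1*-/- (highest 365), at 4498 and 6558 CPM. At the limit, 9 of 32 wildtype and 5 of 72 *Eppk1*-/- cells had 2 or 3 UMIs, whereas 17 and 57 cells had 20 or more. With every cell thinned to 2000 UMIs, a *Cyp2g1* UMI was seen in 87.1% of wildtype and 93.1% of *Eppk1*-/- *Cyp2g1*+ cells (100% of each before thinning), and in 0.200% of reference keratinocytes of either library (0.281% and 0.637% before), at median depths of 4627 and 4623 UMIs. The limit of 2 UMIs sets part of this contrast, since any cell above it was counted with the gland, and the shares are a description. Only 1 wildtype *Cyp2g1*+ cell and 5 wildtype and 2 *Eppk1*-/- *Cyp2g1*-low cells were too shallow to be thinned.

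The *Cyp2g1*+ cells were deeper than the *Cyp2g1*-low cells. Their median depth was 15482 UMIs in wildtype and 20160 UMIs in *Eppk1*-/-, against 9454 and 8551 UMIs. The median lipid gene share was 3.86% and 3.55% against 2.14% and 1.95%, and the median mitochondrial share 0.652% and 0.465% against 1.46% and 1.52%. A deeper cell also meets a limit of 2 UMIs more easily, and the part of depth in the split was not tested beyond the thinned shares above.

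Beyond *Cyp2g1*, the kinds differed in a limited set of genes. Of 6714 genes, 265 (3.95%) were higher in *Cyp2g1*+ than in *Cyp2g1*-low cells by a log2 ratio of 0.5 or more in both libraries, and 682 (10.2%) were lower. *Cyp2f2*, another cytochrome P450, was at 180 CPM in *Cyp2g1*+ and 17.6 CPM in *Cyp2g1*-low cells of the wildtype, and at 87.8 and 7.99 CPM in *Eppk1*-/-. *Carns1*, carnosine synthase, was at 888 and 183 CPM in wildtype and 695 and 11.99 CPM in *Eppk1*-/-. In the opposite direction, the elongase *Elovl7* was at 18.03 CPM in *Cyp2g1*+ and 499 CPM in *Cyp2g1*-low cells of the wildtype, and at 43.9 and 1467 CPM in *Eppk1*-/-. The retinoic acid binding protein *Crabp2* followed *Elovl7*, with 4.01 and 166 CPM in wildtype and 29.3 and 675 CPM in *Eppk1*-/-, and so did *Pctp*, a phosphatidylcholine carrier, with 10.0 and 224 CPM and 8.37 and 124 CPM. *Elovl7* and *Crabp2* UMIs lay mostly in a minority of cells rich in *Elovl4*, described next.

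*Elovl4*, which was not used to choose the cells, varied widely among them. Of the 171 cells, 35 wildtype and 21 *Eppk1*-/- cells held no *Elovl4* UMI, while in others *Elovl4* exceeded 5% of all UMIs. After these values had been seen, the cells were put into 4 ranges for description. *Elovl4*-low cells had under 0.1% *Elovl4*, intermediate cells 0.1% to 1%, and the *Elovl4*-high cells, at 1% or more, were divided by *Scd3* under 1% (*Scd3*-low) or at 1% and above (*Scd3*-high). In this order the ranges held 50, 9, 8 and 9 wildtype cells and 33, 18, 29 and 15 *Eppk1*-/- cells. They are ranges of a measured share and not cell types, and 8 wildtype and 7 *Eppk1*-/- cells lay within 2-fold of the limit of 0.1%, 2 and 13 within 2-fold of that of 1%, and 6 and 17 within 2-fold of that for *Scd3*.

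**Figure D3:**
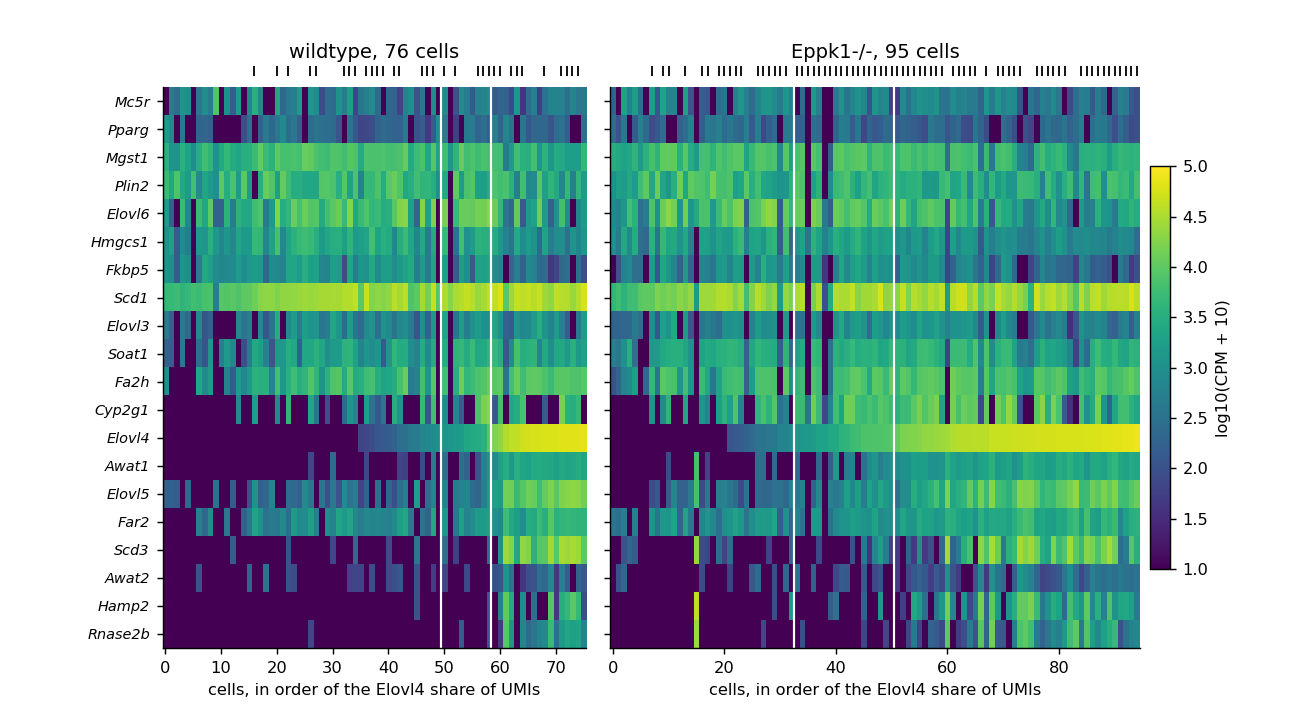
Level of 20 genes in each of the 76 wildtype and 95 *Eppk1*-/- gland cells, ordered from left to right by *Elovl4* share, as log10 of CPM plus 10; ticks mark cells with 2 or more *Cyp2g1* UMIs and white lines the *Elovl4* limits of 0.1% and 1%. *Elovl5*, *Awat1*, *Scd3* and *Hamp2* are bright at the right and *Hmgcs1* and *Fkbp5* at the left in both libraries, and ticks fall along the whole order.

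Of 3643 genes, 312 (8.56%) were at least 2-fold higher and 797 (21.9%) at least 2-fold lower in *Scd3*-high than in *Elovl4*-low cells in both libraries. The genes that chose the cells and *Elovl4*, which set the ranges, are not among them. Of 4 wax and sterol ester genes *Awat1*, *Far1* and *Acsm3* were higher and none was lower. The 7 elongation genes divided, with *Elovl5*, *Elovl7* and *Hacd2* higher, *Elovl6* and *Tecr* lower, and medians of -0.33 (wildtype) and -0.83 (*Eppk1*-/-). In the order of the ranges, *Elovl5* was at 282, 707, 7632 and 14519 CPM in wildtype and 223, 1032, 5916 and 13713 CPM in *Eppk1*-/-. *Awat1* was at 38.0, 404, 2255 and 2354 CPM and at 61.0, 505, 1899 and 2823 CPM. *Far2*, which reduces fatty acids to the fatty alcohols of wax, was at 860, 1221, 3113 and 4229 CPM and at 1083, 998, 2225 and 3938 CPM. The lipase *Pnpla5* was at 2.00, 25.3, 672 and 932 CPM and at 3.05, 45.4, 570 and 960 CPM. Ceramide synthase *Cers5* was at 50.01 CPM in wildtype *Elovl4*-low cells and 1352 CPM in *Scd3*-high cells, whereas *Cers4* was at 2244 and 583 CPM, and in *Eppk1*-/- the pairs were 67.1 and 2418 CPM and 2097 and 274 CPM. Of 6 spinous and granular genes 4 were higher and none lower in both libraries. Corneodesmosin, *Cdsn*, among the genes of highest ratio, was at 4.001 and 970 CPM in wildtype and 12.2 and 1289 CPM in *Eppk1*-/-. The antimicrobial peptide gene *Hamp2* was at 2.00 and 4109 CPM in wildtype and 113 and 6615 CPM in *Eppk1*-/-. In the *Eppk1*-/- *Elovl4*-low range, 1 cell of 723 UMIs held 30 of the 37 *Hamp2* UMIs and 16 of the 30 *Scd3* UMIs.

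Cholesterol synthesis, lipid uptake and basal genes had their higher levels at the *Elovl4*-low end. Of 11 uptake and activation genes 6, and of 9 basal layer genes 6, were at least 2-fold lower in *Scd3*-high cells in both libraries, and none was higher, beside 21.9% of all genes lower. Of 22 cholesterol synthesis genes 12 were lower and 2 higher, with medians of -1.31 (wildtype) and -1.60 (*Eppk1*-/-) beside -0.42 and -0.49 for all genes. Farnesyl diphosphate synthase, *Fdps*, was at 2544, 3275, 839 and 289 CPM across the wildtype ranges and at 2585, 2063, 835 and 180 CPM across the *Eppk1*-/- ranges. *Hmgcs1* was at 2436, 2795, 1297 and 861 CPM and at 2307, 2009, 1106 and 550 CPM. *Insig1* ran the other way, at 420, 463, 1292 and 1357 CPM and at 375, 578, 1030 and 1056 CPM. Lipoprotein lipase, *Lpl*, was at 438 and 27.3 CPM at the ends of the wildtype order and at 381 and 5.82 CPM in *Eppk1*-/-. The triglyceride enzyme *Dgat2* was at 922 and 38.2 CPM and at 1102 and 20.4 CPM, whereas *Dgat1*, which makes the same bond, was at 110 and 300 CPM and at 79.3 and 230 CPM.

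*Elovl7* had 1, 0, 155 and 109 UMIs across the wildtype ranges and 1, 9, 59 and 361 UMIs across the *Eppk1*-/- ranges, and *Crabp2* 1, 0, 21 and 65 UMIs and 5, 9, 30 and 167 UMIs. *Elovl6*, the elongase of saturated and monounsaturated fatty acids, peaked before the end of the order in wildtype, at 7245, 13327, 5873 and 1493 CPM, and was at 9531, 8383, 4418 and 1208 CPM in *Eppk1*-/-. *Scd1*, a gene that chose the cells, varied by less than 2-fold across the same ranges, at 23548, 35268, 44746 and 32188 CPM in wildtype and 20148, 26195, 34112 and 26914 CPM in *Eppk1*-/-. *Scd1* and *Scd3* are related genes on chromosome 19 whose probes could share RNA, which was not tested, and both chose the cells. *Scd3* UMIs were 0.102% of *Scd1* UMIs in *Elovl4*-low, 0.286% in intermediate and 36.5% in all *Elovl4*-high cells of the wildtype, and 0.454%, 0.878% and 28.3% in *Eppk1*-/-. *Lrig1*, a marker of progenitors at the gland and upper follicle, was at 130 and 16.4 CPM at the ends of the wildtype order and 122 and 8.73 CPM in *Eppk1*-/-. An *Mki67* UMI, a mark of dividing cells, was seen in 7 of 50 wildtype and 5 of 33 *Eppk1*-/- *Elovl4*-low cells and in 1 cell of all other ranges. Median depth went from 9879 UMIs in wildtype *Elovl4*-low cells to 26412 UMIs in *Elovl4*-high *Scd3*-low cells and was 17718 UMIs in *Scd3*-high cells, and in *Eppk1*-/- it went from 9950 to 24280 and 22303 UMIs. The median mitochondrial share was 1.67% in wildtype and 1.69% in *Eppk1*-/- *Elovl4*-low cells and 0.203% and 0.2502% in *Scd3*-high cells.

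*Cyp2g1*+ cells occurred in every range of both libraries. In the order of the ranges, 17, 5, 4 and 6 wildtype cells were *Cyp2g1*+, or 34%, 55.6%, 50% and 66.7% of each range. In *Eppk1*-/- the numbers were 17, 18, 28 and 9 cells, or 51.5%, 100%, 96.6% and 60%. *Cyp2g1* chose some of these cells, and 3 of the 18 intermediate and 1 of the 33 *Elovl4*-low *Eppk1*-/- cells were taken by it alone. The *Cyp2g1* level was 866, 6609, 949 and 4529 CPM across the wildtype ranges and 2298, 6414, 7951 and 3222 CPM across the *Eppk1*-/- ranges.

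**Figure D4:**
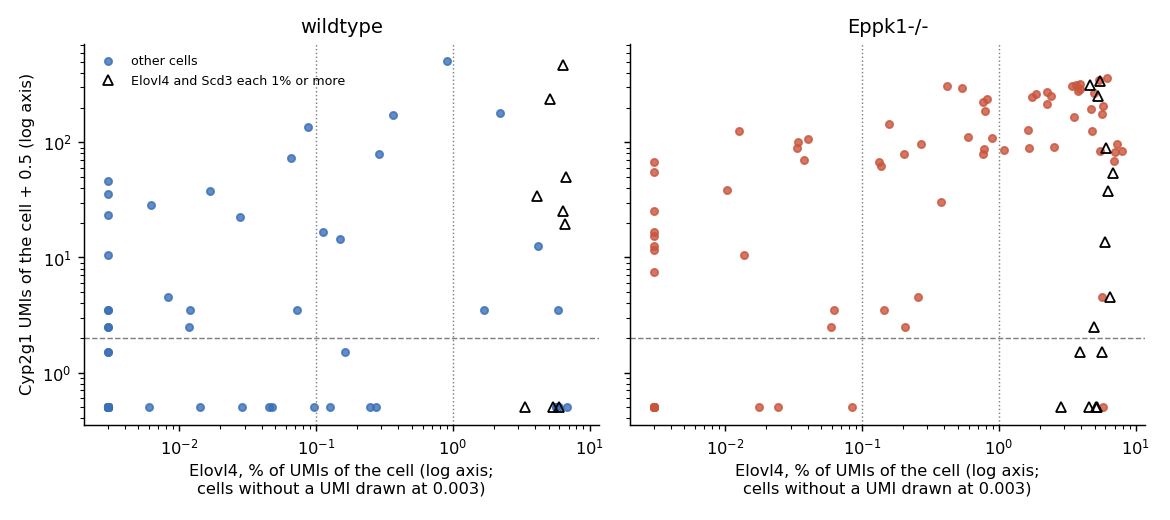
*Cyp2g1* UMIs plus 0.5 against *Elovl4* share (%) of each gland cell, by library, on log axes; triangles are cells with *Elovl4* and *Scd3* each at 1% or more, the dashed line is the limit of 2 *Cyp2g1* UMIs and dotted lines are the *Elovl4* limits of 0.1% and 1%. Cells without an *Elovl4* UMI stand at the left edge. Cells high in *Cyp2g1* occur over the whole *Elovl4* axis, and 57 of the 72 *Eppk1*-/- but 17 of the 32 wildtype *Cyp2g1*+ cells have 20 or more UMIs.

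Between genotypes, the *Cyp2g1*+ cells were compared over 6469 genes seen in at least 25% of their cells, of which 589 (9.10%) were higher and 1214 (18.8%) lower in *Eppk1*-/- by a log2 ratio of 0.5 or more. Under the TMM scaling of edgeR, which moved all ratios up by 0.149, the split was 972 higher and 821 lower. Of 5841 genes of the *Cyp2g1*-low cells, 1140 (19.5%) were higher and 1343 (23.0%) lower. These counts are of a size and not of a test. In *Cyp2g1*+ cells *Scd1* was at 33948 and 31270 CPM (-0.12, -0.14 to -0.09), *Elovl3* at 892 and 900 CPM (0.01, -0.14 to 0.17) and the melanocortin receptor *Mc5r* at 463 and 549 CPM (0.24, 0.03 to 0.46). The same genes were lower in *Cyp2g1*-low cells of *Eppk1*-/-, *Scd1* at 27902 and 11777 CPM (-1.24, -1.30 to -1.19), *Elovl3* at 975 and 164 CPM (-2.56, -3.07 to -2.11) and *Mc5r* at 493 and 312 CPM (-0.66, -1.05 to -0.29). *Scd3* was at 5529 and 3944 CPM (-0.49, -0.55 to -0.42) in *Cyp2g1*+ cells and at 5560 and 14599 CPM (1.39, 1.32 to 1.46) in *Cyp2g1*-low cells, where weighting by wildtype shares gave 0.31 over *Elovl4* ranges and 1.95 over bins of the lipid gene share. *Eppk1*-/- *Cyp2g1*-low cells had no intermediate and 1 *Elovl4*-high *Scd3*-low cell, which limits such weighting. *Scd1*, *Scd3*, *Elovl3* and *Mc5r* chose the cells, so their ratios are a description. Within *Elovl4*-low *Cyp2g1*-low cells that of *Scd1* was -0.62 (-0.72 to -0.53) and that of *Mc5r* -0.28 (-0.79 to 0.19). Over both kinds of cell the *Mc5r* ratio was 0.35 (0.10 to 0.60) within *Elovl4*-low and 0.44 (0.16 to 0.73) within *Elovl4*-high cells. The *Elovl3* ratio was 0.24 (0.01 to 0.48) and -0.69 (-0.85 to -0.52) there. *Awat1* was higher in *Eppk1*-/- in both kinds of cell, at 894 and 1354 CPM (0.60, 0.45 to 0.75) and 1026 and 2042 CPM (0.99, 0.81 to 1.17), whereas within *Elovl4*-high cells it was at 2301 and 2209 CPM (-0.06, -0.17 to 0.05). The cells came from different parts of the *Elovl4* order, since *Scd3*-high cells gave 15.95% of the UMIs of wildtype and 53.2% of those of *Eppk1*-/- *Cyp2g1*-low cells, in 3 and 6 cells.

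Cholesterol synthesis had the lowest median of the lipid lists in both kinds of cell. Of its 22 genes with 50 or more UMIs, 11 were lower by 0.5 or more and none higher in *Eppk1*-/- *Cyp2g1*+ cells, with a median of -0.50, where 8.59% of all 5180 such genes were higher, 14.9% lower, and the median was -0.08. In *Cyp2g1*-low cells 16 were lower and 1 higher with a median of -0.78, where 18.4% of all 3087 genes were higher, 18.1% lower, and the median was -0.002. *Fdps* was at 2314 and 1429 CPM in *Cyp2g1*+ cells (-0.70, -0.80 to -0.59) and 1433 and 444 CPM in *Cyp2g1*-low cells (-1.69, -1.99 to -1.40). *Hmgcs1* was at 2250 and 1527 CPM (-0.56, -0.66 to -0.45) and 1671 and 691 CPM (-1.27, -1.52 to -1.04).

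Among *Cyp2g1*+ cells the genotypes also differed in their place along the *Elovl4* order. *Elovl4*-low cells gave 46.4% of the UMIs of wildtype and 16.2% of those of *Eppk1*-/- *Cyp2g1*+ cells. Within *Elovl4*-low *Cyp2g1*+ cells, 17 of each genotype, none of 21 cholesterol genes differed by 0.5 or more and the median was -0.02, where 10.5% of 1811 genes were higher and 12.1% lower. *Fdps* was at 3091 and 3226 CPM there (0.06, -0.09 to 0.21) and *Hmgcs1* at 2674 and 2788 CPM (0.06, -0.10 to 0.22). Weighting the ranges by their wildtype shares gave a cholesterol median of -0.20 for *Cyp2g1*+ cells. The part of the *Elovl4* order in the genotype difference was not tested.

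In *Cyp2g1*-low cells the difference was also present within a range. Among *Elovl4*-low *Cyp2g1*-low cells, 33 wildtype and 16 *Eppk1*-/- cells with median lipid gene shares of 1.04% and 1.31%, 13 of 18 cholesterol genes were lower and 1 higher with a median of -0.92, where 20.7% of 1610 genes were higher and 15.2% lower. *Fdps* was at 2076 and 1055 CPM (-0.97, -1.30 to -0.67) and *Elovl6* at 5516 and 2378 CPM (-1.21, -1.42 to -1.01). Fatty acid synthesis genes had a median of -0.84 there, 6 of 9 lower, and 0.16 in *Elovl4*-low *Cyp2g1*+ cells. Early response genes, which dissociation can raise, moved in opposite directions within *Elovl4*-low cells, with 8 of 14 higher in *Eppk1*-/- *Cyp2g1*-low cells and 7 of 12 lower in *Eppk1*-/- *Cyp2g1*+ cells. Over all ranges their medians were 0.30 in *Cyp2g1*-low and 0.34 in *Cyp2g1*+ cells. The part of these early response genes in the lipid values was not tested. Over both kinds of *Elovl4*-low cell together the cholesterol median was -0.01 and the *Cyp2g1*+ cells, which had the higher levels, were 17 of 50 wildtype but 17 of 33 *Eppk1*-/- cells.

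**Figure D5:**
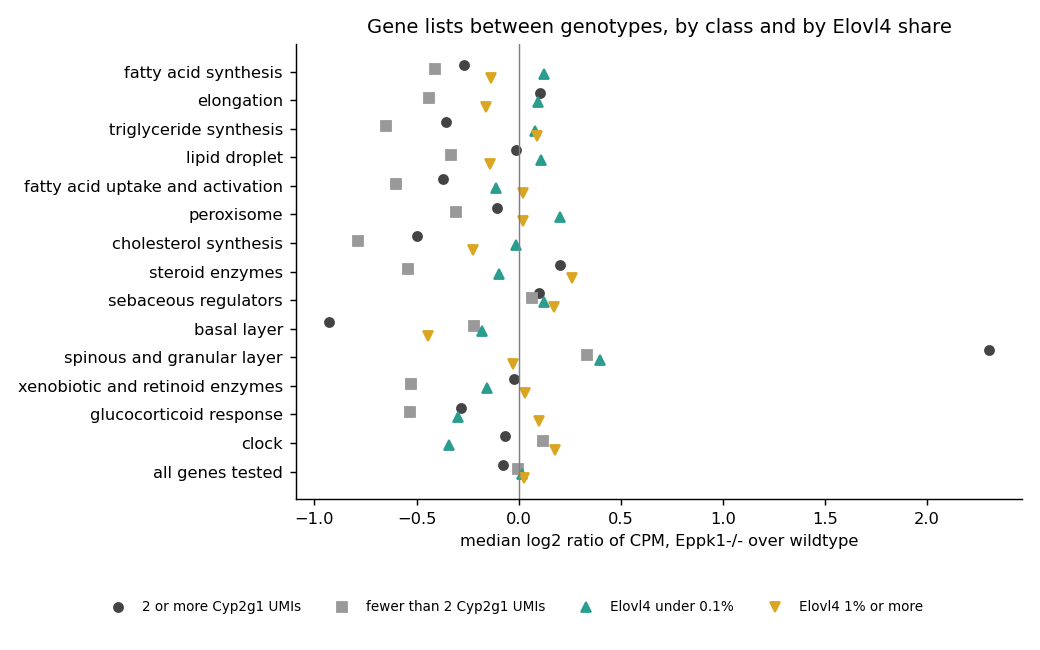
Median log2 ratio of *Eppk1*-/- over wildtype for 14 gene lists and for all genes with 50 or more UMIs, in *Cyp2g1*+ cells, *Cyp2g1*-low cells, *Elovl4*-low cells and *Elovl4*-high cells, the last 2 groups over both kinds of cell. The cholesterol median is -0.50 in *Cyp2g1*+ cells, -0.78 in *Cyp2g1*-low cells, -0.01 in *Elovl4*-low cells and -0.22 in *Elovl4*-high cells.

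Triglyceride synthesis genes of the *Cyp2g1*+ cells stood near the share of all genes given above (14.9% lower and 8.59% higher). Of 8 triglyceride synthesis genes 2 were lower and 1 higher in *Eppk1*-/- *Cyp2g1*+ cells with a median of -0.36, and of 6 genes 4 were lower and 1 higher in *Cyp2g1*-low cells with a median of -0.65, where 18.1% of all genes were lower and 18.4% higher. Of 11 genes of fatty acid uptake and activation 4 and 7 were lower and none higher, with medians of -0.37 and -0.60. Within *Elovl4*-low cells of both kinds together 1 of 11 was lower with a median of -0.11 (10.5% of all genes lower). Taken by kind, 2 of 9 were lower in *Elovl4*-low *Cyp2g1*+ cells with a median of 0.06 (12.1% of all genes lower). In *Elovl4*-low *Cyp2g1*-low cells 5 of 10 were lower with a median of -0.50 (15.2% lower). *Agpat2*, an acyltransferase that makes phosphatidic acid for triglycerides (chr2:26593057-26604417), was at 158 and 19.5 CPM in *Cyp2g1*+ cells (-3.00, -3.70 to -2.38) and 107 and 11.99 CPM in *Cyp2g1*-low cells (-2.95, -5.48 to -1.54), whereas keratinocytes had 8.72 and 6.60 CPM (-0.40). Over both kinds of cell it was lower within *Elovl4*-low cells (-1.63, -2.83 to -0.68) and within *Elovl4*-high cells (-3.34, -4.39 to -2.49). Among *Elovl4*-low cells it had 14 and 7 UMIs in *Cyp2g1*+ cells (-0.95, -2.55 to 0.40), an interval that spans 0, and 35 and 3 UMIs in *Cyp2g1*-low cells (-1.87, -4.41 to -0.40). Its relative *Agpat3* was higher in *Eppk1*-/- in both kinds of cell, at 371 and 632 CPM (0.77, 0.54 to 1.01) and 513 and 1638 CPM (1.67, 1.45 to 1.90), but its level also rose along the *Elovl4* order, and its ratio was 0.79 (0.23 to 1.35) within *Elovl4*-low and 0.31 (0.14 to 0.49) within *Elovl4*-high cells. *Lpl* was at 232 and 114 CPM (-1.03, -1.38 to -0.68) and 269 and 120 CPM (-1.15, -1.79 to -0.59), but within *Elovl4*-low cells of both kinds its levels were 438 and 381 CPM. Apolipoprotein E, *Apoe*, was at 13182 and 7450 CPM (-0.82, -0.87 to -0.78) and 14511 and 9579 CPM (-0.60, -0.67 to -0.53). The fatty acid activating enzyme *Acsl3* was at 114 and 29.3 CPM (-1.96, -2.57 to -1.36) in *Cyp2g1*+ cells and 234 and 232 CPM (-0.01, -0.49 to 0.45) in *Cyp2g1*-low cells. Its level also fell along the *Elovl4* order, and within *Elovl4*-low cells of both kinds it was at 308 and 232 CPM.

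*Pnpla3*, a lipid droplet protein related to triglyceride lipases (chr15:84167837-84187236), was among the genes with the highest ratios in the *Cyp2g1*+ cells. No UMI was seen in the 32 wildtype cells and 163 UMIs in the 72 *Eppk1*-/- cells, of which 69.4% carried it. Its level was 114 CPM in *Eppk1*-/-, where 3 counts over the wildtype cells would give 6.01 CPM, and the lower end of the exact interval of the log2 ratio was 3.93. In *Cyp2g1*-low cells it had 3 and 17 UMIs, or 5.85 and 67.9 CPM (3.36, 1.75 to 5.95), and in reference keratinocytes 11.5 and 42.7 CPM. Within the *Eppk1*-/- cells it was at 18.3 CPM in *Elovl4*-low cells and at 115, 135 and 128 CPM in the later ranges, against 2, 0, 1 and 0 UMIs in the wildtype ranges. In *Elovl4*-high cells its levels were 2.54 and 133 CPM (5.12, 3.20 to 11.02).

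Few genes differed in the same direction at both ends of the order. Comparing genotypes within *Elovl4*-low cells, 7.49% of 3430 genes were higher and 10.5% lower, and within *Elovl4*-high cells 11.3% of 4021 genes were higher and 7.96% lower. Of 3044 genes measured in both, 35 (1.15%) were higher and 35 (1.15%) lower at both ends. Among those higher was *Cyp2g1* itself, at 866 and 2298 CPM (1.41, 1.24 to 1.58) in *Elovl4*-low cells and 2619 and 6368 CPM (1.28, 1.19 to 1.38) in *Elovl4*-high cells, a gene that chose the cells. *Id1*, an inhibitor of helix-loop-helix factors, was at 130 and 284 CPM (1.12, 0.65 to 1.61) and 86.5 and 158 CPM (0.85, 0.33 to 1.45), and *Sccpdh* at 314 and 558 CPM (0.83, 0.51 to 1.15) and 201 and 359 CPM (0.83, 0.49 to 1.21). *Pdss1*, which makes the side chain of coenzyme Q, was lower, at 138 and 48.8 CPM (-1.47, -2.38 to -0.70) and 117 and 4.87 CPM (-4.46, -6.28 to -3.26). *Sptlc3*, a subunit of the enzyme that starts sphingolipid synthesis, was at 138 and 48.8 CPM (-1.47, -2.38 to -0.70) and 384 and 165 CPM (-1.22, -1.55 to -0.90). The small heat shock protein *Hspb1* was at 454 and 201 CPM (-1.17, -1.59 to -0.77) and 292 and 62.4 CPM (-2.22, -2.69 to -1.78).

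Of the glucocorticoid responsive genes, *Fkbp5* differed most in *Cyp2g1*-low cells, while the values of the list depended on how the *Elovl4* ranges were treated. *Fkbp5*, an early target of the glucocorticoid receptor, was at 1056 and 796 CPM in *Cyp2g1*+ cells (-0.41, -0.56 to -0.26) and at 827 and 192 CPM in *Cyp2g1*-low cells (-2.09, -2.57 to -1.67), beside -1.78 in keratinocytes. Within *Elovl4*-low cells it was at 1378 and 1368 CPM in *Cyp2g1*+ cells (-0.01, -0.24 to 0.22) and 1248 and 352 CPM in *Cyp2g1*-low cells (-1.81, -2.38 to -1.32). Over both kinds of cell its ratio was -0.29 (-0.48 to -0.10) within *Elovl4*-low cells. Within *Elovl4*-high cells *Fkbp5* was higher in *Eppk1*-/-, at 336 and 472 CPM (0.49, 0.21 to 0.78). The list of 17 measured genes had 5 lower and none higher in *Cyp2g1*+ cells with a median of -0.28, where 14.9% of all genes were lower and 8.59% higher, and 9 lower and 3 higher in *Cyp2g1*-low cells with a median of -0.53, where 18.1% were lower and 18.4% higher. Within *Elovl4*-low cells of both kinds together 6 of 16 genes were lower and 1 higher with a median of -0.30, where 10.5% of all genes were lower and 7.49% higher. Taken by kind, 2 of 7 measured genes were lower and none higher in *Cyp2g1*+ cells with a median of -0.01 (12.1% of all genes lower, 10.5% higher), and 2 of 13 were lower and 3 higher in *Cyp2g1*-low cells with a median of -0.12 (15.2% lower, 20.7% higher). Weighting the ranges by their wildtype shares gave list medians of -0.66 for *Cyp2g1*+ and -0.12 for *Cyp2g1*-low cells, which turns the order of the kinds of cell, whereas weighting bins of the lipid gene share gave -0.64 for *Cyp2g1*-low cells. The value of -0.12 rests on ranges with few or no *Eppk1*-/- cells of that kind. *Txnip* was at 1625 and 1792 CPM (0.14, 0.03 to 0.26) and 2297 and 1127 CPM (-1.03, -1.22 to -0.84). The latter ratio lay between -1.83 and -0.30 over all alternatives. Over both kinds of cell the *Txnip* ratio was -0.22 (-0.36 to -0.08) within *Elovl4*-low and -0.18 (-0.32 to -0.04) within *Elovl4*-high cells. The aryl hydrocarbon target *Cyp1a1*, whose ratio in keratinocytes was -2.44, was at 144 and 158 CPM (0.12, -0.26 to 0.53) and 257 and 192 CPM (-0.41, -0.93 to 0.06) in the gland.

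Epidermal genes were higher in *Eppk1*-/- *Cyp2g1*+ cells, but a large part of their UMIs came from a few cells. Of 13 spinous and granular genes 12 were higher by 0.5 or more with a median of 2.31, where 8.59% of all genes were higher. A single cell of 32456 UMIs with 3 *Scd1* UMIs and 950 *Krt10* UMIs belonged to the 4 *Eppk1*-/- *Cyp2g1*+ cells under 0.5% lipid genes, and without that cell 10 genes were higher and 1 lower with a median of 1.09, and the UMIs of filaggrin, *Flg*, went from 1398 to 32. Without all 4 cells 6 were higher and 2 lower with a median of 0.47. *Flg* then had a log2 ratio of -0.13 (-1.31 to 1.31), loricrin, *Lor*, -0.24 (-1.19 to 0.85) and *Krtdap* -0.05 (-0.72 to 0.71), while *Krt77* was at 1.83 (1.15 to 2.68) and *Krt10* at 0.70 (0.29 to 1.15). *Sbsn* went from 1.003 (0.92 to 1.09) to 0.79 (0.71 to 0.88) and *Calml3* from 1.13 (0.83 to 1.45) to 1.10 (0.80 to 1.42) without them, and both were higher in *Cyp2g1*-low cells too, at 1.04 (0.93 to 1.15) and 1.30 (0.96 to 1.64). *Sbsn* also followed the *Elovl4* order, and within *Elovl4*-low cells its ratio was 0.34 (0.01 to 0.67) and within *Elovl4*-high cells 0.14 (0.07 to 0.20). Of 9 basal genes 6 were lower and none higher in *Eppk1*-/- *Cyp2g1*+ cells, where 14.9% of all genes were lower, with a median of -0.93 that turned to 0.0868 with cells thinned to 2000 UMIs. Within *Elovl4*-low cells of both kinds 2 of 9 were lower with a median of -0.18 (10.5% of all genes lower), and within *Elovl4*-high cells 3 of 7 with a median of -0.44 (7.96% lower). In *Elovl4*-low *Cyp2g1*-low cells 4 of 8 were higher with a median of 0.51 (20.7% higher). Over all *Cyp2g1*+ cells the epithelial stem cell factor *Trp63* was at 218 and 65.5 CPM (-1.74, -2.15 to -1.33) and the integrin *Itga6* at 118 and 58.6 CPM (-1.02, -1.51 to -0.51).

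The other plakins did not share a direction. In *Cyp2g1*+ cells periplakin, *Ppl*, was at 56.1 and 114 CPM (0.997, 0.43 to 1.65), *Dsp* at 637 and 967 CPM (0.60, 0.43 to 0.78), *Plec* at 120 and 102 CPM (-0.25, -0.68 to 0.22) and the basal plakin *Dst* at 66.1 and 32.8 CPM (-1.02, -1.69 to -0.32). Without the 4 cells of low lipid gene share the *Ppl* ratio was -0.29, and the ratio of envoplakin, *Evpl*, went from 1.36 to -0.73. In *Cyp2g1*-low cells *Ppl* was at 76.1 and 156 CPM (1.04, 0.36 to 1.71), *Plec* at 119 and 256 CPM (1.10, 0.58 to 1.63) and *Dst* at 240 and 168 CPM (-0.50, -1.06 to 0.00). The *Dst* ratio turned to 0.37 in *Cyp2g1*+ cells after thinning, and in *Cyp2g1*-low cells to 0.0924 with a lipid gene share of at least 1% and 0.0362 with *Elovl4* ranges weighted. Wildtype *Eppk1* was lower in *Elovl4*-high cells, at 814, 1162, 33.4 and 27.3 CPM in the order of the ranges, the second value resting to 75.4% on 1 cell, with a UMI in 25 of 50, 6 of 9, 3 of 8 and 3 of 9 cells. With cells thinned to 2000 UMIs, 33.3% of wildtype *Cyp2g1*-low and 19.4% of *Cyp2g1*+ cells held an *Eppk1* UMI (54.5% and 40.6% before thinning), against 76.9% of reference keratinocytes and 12.5% of reference fibroblasts.

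RNA of other cell types was present at low level. The 10 fibroblast genes other than the collagens summed to 42.1 and 36.3 CPM in *Cyp2g1*+ cells, led by *Sparc*, with 3 and 2 genes at 0, and to 174 and 71.9 CPM in *Cyp2g1*-low cells. The 13 immune genes summed to 1893 CPM in wildtype *Cyp2g1*+ cells, 98.7% of it from 1 cell and led by *Cd74*, and to 496 CPM in *Eppk1*-/-, beside 533 and 803 CPM in keratinocytes. The 10 adipocyte genes summed to 190 and 123 CPM in *Cyp2g1*+ and 447 and 248 CPM in *Cyp2g1*-low cells, led by *Adig*, and 2 wildtype *Cyp2g1*-low cells of 789 and 1032 UMIs held 30 and 56 UMIs of the adipocyte gene *Cfd*. The doublet score of Scrublet was in the highest 5% of its library for 1 of 32 wildtype and 11 of 72 *Eppk1*-/- *Cyp2g1*+ cells, and for 1 of 44 and 1 of 23 *Cyp2g1*-low cells. Apart from the values given without single cells, the part of such RNA in the differences between genotypes was not tested.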

How the data were processed

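Cell Ranger 8.0.1 and mm10 are named in the submitters' processing notes. The authors deposited raw UMI counts of 19059 genes, in 9179 wildtype and 8811 *Eppk1*-/- cell barcodes. The cell filters of the study's methods had not been applied to the deposited counts and removed 304 and 194 barcodes here. The members, the 30 gene lists (496 of 506 genes in the files) and the ranges were chosen with earlier results of these data known.

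UMIs were summed per library and kind of cell and divided by the non-mitochondrial total (13 mitochondrial genes left out) to give CPM. Log2 ratios were taken after adding 0.5 UMI to each sum. Intervals are exact Poisson (levels), Clopper-Pearson (shares) and conditional binomial (ratios) at 95%. A difference of 0.5 on the log2 scale, the size used in the study, described genes, and lists used genes with 50 or more UMIs over both libraries. With 1 library per genotype, no test was made. Named genes were the genes of the rule, plakins, the most abundant and the most extreme members of each list, and the most extreme genes per kind of cell, of which a few are not reported here. Genes set apart after their values were seen are those of the *Elovl4* and *Scd3* ranges.

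Doublets were scored with Scrublet (scanpy 1.11.5) and kept. Its own threshold marked 1 wildtype cell and 220 *Eppk1*-/- cells. TMM factors came from edgeR 4.0.16 (R 4.3.3). Other steps used Python 3.11.15, numpy 2.4.6, scipy 1.17.1, pandas 2.3.3 and matplotlib 3.10.9. The interval and ratio code was tested on simulated data. Of the planned choices, 18 alternatives were run, and 4 more were chosen after seeing the data.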

Additional observations from a re-analysis of the deposited data

Results flagged for a closer look

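In the *Eppk1*-/- library 54 cells with 2 or more *Cyp2g1* UMIs were left out by the collagen limit, against 3 in the wildtype library, so that a *Cyp2g1* signal was present in cells outside the comparison.

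Flagged here were 4 genes for which the genotypes differed in opposite directions in the *Cyp2g1*+ and *Cyp2g1*-low cells, each by 0.5 or more on the log2 scale. The number is not a count over all genes. *Plin4*, with only 7 and 5 UMIs in *Cyp2g1*+ cells, had ratios of -1.97 and 0.92 and was not flagged. The difference between the kinds of cell was not tested. The lysosomal protease *Ctsb* had a log2 ratio of *Eppk1*-/- over wildtype of -0.85 in *Cyp2g1*+ and 0.60 in *Cyp2g1*-low cells, and the calcium binding protein *S100a8* had -1.57 and 1.13. *S100a8* was at 441 and 215 CPM in *Scd3*-high cells of both kinds, against 2.00 and 3.05 CPM in *Elovl4*-low cells. The *Scd3*-high cells gave 20.1% and 14.5% of the UMIs of *Cyp2g1*+ cells and 15.95% and 53.2% of those of *Cyp2g1*-low cells. The arrestin relative *Arrdc3* had -0.56 and 0.75, and the clock repressor *Nfil3* had -0.50 and 0.60.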

How the results depend on the processing

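Of the shares of cells, 42 recomputed values moved by less than the counting interval and 6 by more. With cells holding 0.5% or more of another type's markers left out, which shrinks the denominator, *Cyp2g1*+ cells were 0.529% of wildtype and 1.59% of *Eppk1*-/- cells and *Cyp2g1*-low cells 0.717% and 0.522%. With no collagen limit the *Eppk1*-/- *Cyp2g1*+ share was 1.46%, and with a lipid gene share of at least 1% the wildtype *Cyp2g1*-low share was 0.327%.

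Of the counts of genes past 0.5 on the log2 scale, 71 stayed within 1.5 times and 11 did not. Genes higher in *Eppk1*-/- *Cyp2g1*+ cells numbered 972 under TMM scaling, 975 with a UMI in 10% of cells and 1473 with cells thinned to 2000 UMIs, and genes lower 1892 with a UMI in 10% of cells, 771 with 50 UMIs and 1995 after thinning. In *Cyp2g1*-low cells genes higher numbered 1726 with a UMI in 10% of cells, 568 with 50 UMIs and 1996 after thinning, and genes lower 2219 and 560 for the same 2 filters. Fewer or more genes are tested under these filters, and thinning removes counts.

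Of the levels, 1486 were labelled the same, 253 moved and 12 reversed, and of the list medians 726 were labelled the same, 13 moved and 1 reversed. These labels do not count every change of sign. In *Cyp2g1*-low cells the basal layer median of -0.22 lay between -0.51 and 0.39 over all alternatives. The wax and sterol ester median of 0.38 lay between -0.17 and 0.87 there, and the *Far2* ratio of 0.38 between -0.17 and 0.87. *Dst* in *Cyp2g1*-low cells was 0.0924 with a lipid gene share of at least 1% and 0.0362 with *Elovl4* ranges weighted, where *Trp63* was 0.0667. After thinning, *Dst* in *Cyp2g1*+ cells was 0.37, their basal layer median 0.0868, and *Krt10* in *Cyp2g1*-low cells -0.62. In *Cyp2g1*+ cells *Evpl* was -0.31 with at least 3 *Cyp2g1* UMIs. Without the cells under 0.5% lipid genes, left out after seeing the data, *Evpl* was -0.73, *Ppl* -0.29, *Flg* -0.13, *Lor* -0.24 and *Krtdap* -0.0479, and without the deepest of these cells alone *Evpl* was -0.27. Over all alternatives *Agpat2* lay between -3.13 and -1.22 in *Cyp2g1*+ and between -3.78 and -0.49 in *Cyp2g1*-low cells, and *Eppk1* between -5.01 and -0.78 and between -3.65 and -2.03. The causes of the reversals were not tested.

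No paired analysis was possible because each genotype had 1 sample. The 23 *Eppk1*-/- *Cyp2g1*-low cells and their 250230 UMIs limit the ratios of that kind of cell.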

Other observations

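Peroxisomal *Acox3*, an acyl-CoA oxidase, was higher in *Eppk1*-/- in both kinds of cell, at 990 and 1675 CPM (log2 ratio 0.76, 0.62 to 0.90) in *Cyp2g1*+ and 1135 and 2973 CPM (1.39, 1.23 to 1.55) in *Cyp2g1*-low cells, while the alcohol dehydrogenase *Adh1* was lower, at 381 and 186 CPM (-1.03, -1.31 to -0.76) and 296 and 87.9 CPM (-1.73, -2.47 to -1.103). The steroid hydroxylase *Cyp17a1* was at 455 and 578 CPM (0.34, 0.13 to 0.56) in *Cyp2g1*+ and 197 and 27.97 CPM (-2.72, -4.17 to -1.72) in *Cyp2g1*-low cells. Its level also differed along the *Elovl4* order. Over both kinds of cell *Cyp17a1* was at 504, 539, 57.2 and 0 CPM across the wildtype ranges. The *Eppk1*-/- ranges were each higher, at 671, 938, 413 and 69.8 CPM. *Klk6* had 0 UMIs in wildtype and 91 UMIs in *Eppk1*-/- *Cyp2g1*+ cells, which came from 18 cells, and 87 UMIs remained without the 4 cells under 0.5% lipid genes, but over all gland cells it was at 71.2 and 78.4 CPM (0.13, -0.29 to 0.57). *Gsta4*, a glutathione transferase, had 37 and 0 UMIs in *Cyp2g1*-low cells. Over both kinds of cell, however, it was at 106 and 94.6 CPM (-0.15, -0.85 to 0.50) within *Elovl4*-low cells. Within *Elovl4*-high cells it was at 50.9 and 58.5 CPM (0.18, -0.55 to 1.01).

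A wildtype *Cyp2g1*-low cell of 6039 UMIs held 50 *Mc5r* UMIs, 3 *Scd1* UMIs and 5 *Mki67* UMIs, and was taken mostly through *Mc5r*.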
